A study of Mus musculus with 36 samples.

Results

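Red blood cells carry oxygen on hemoglobin, a tetramer of alpha-like and beta-like globin chains that each hold a heme. In the mouse the adult alpha chains come from Hba-a1 and Hba-a2 and the adult beta chains from Hbb-bs and Hbb-bt, while Hbb-y encodes an embryonic beta-like chain of the primitive red cells made in the yolk sac. Alas2 starts heme synthesis in erythroid cells, Epb42 encodes the membrane skeleton protein 4.2, Ahsp encodes a chaperone of free alpha chains, and Gata1 is the transcription factor that drives the erythroid program and also acts in megakaryocytes, mast cells and eosinophils. By the last days of gestation the liver is the main site of red cell production, and an intestine removed whole contains the blood within its vessels.

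The transcripts of these 9 genes, taken by name, were followed in intestines of mouse embryos that differ in the alleles of caspase-8 and of its partners. Of the 9, 8 were found among the 52636 genes of each table, and Ahsp was not analysed here. The 30 libraries are whole intestines of E18.5 embryos, 3 embryos for each of 10 genotypes, and 6 further libraries of mouse embryonic fibroblasts (MEFs) held 1 globin read in all. Every intestine except those of Casp8 1xDA/1xDA alone lacked Mlkl, the effector of necroptosis, so the controls of both sets are Mlkl-/- and not wild-type embryos. All alleles were constitutive, and the mice had a C57BL/6N background.

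The D387A set holds 6 genotypes, and the labels give the allele as Casp8 D387A KI, a knock-in of caspase-8 that cannot autoprocess between its subunits, written here as 1xDA. They are Mlkl-/- controls, embryos with Casp8 1xDA/1xDA alone, embryos with Casp8 1xDA/1xDA Cflar-/- Mlkl-/-, which also lack the caspase-8 partner cFLIP, and this last genotype with Casp1-/-, with Casp1-/- Ifnar1-/- (no caspase-1 and no type I interferon receptor) or with Casp1-/- Fadd-/- (no caspase-1 and no adaptor FADD). In this set the Cflar and Mlkl deletions came from a single mosaic founder. The C362A set, in which caspase-8 carries the catalytically inactive C362A allele, holds 4 genotypes: Mlkl-/- controls of its own, Casp8 C362A/C362A Mlkl-/-, and this genotype with Casp1-/- or with Cflar-/-. Below, the Casp1-/- intestines of the D387A set are those of Casp8 1xDA/1xDA Cflar-/- Mlkl-/- Casp1-/- embryos, the Ifnar1-/- intestines those that lack Ifnar1 as well, and the Fadd-/- intestines those that lack Fadd as well.

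The libraries held 17943524 to 31052238 reads on genes. Intestinal markers were present in every library, with a summed level of 4237 to 14686 CPM (reads relative to the library size) over 8 genes. Casp1 had 0 to 5 reads in each library labelled Casp1-/- and 952 to 3489 in the others, and Fadd had 15 to 23 reads in the Fadd-/- libraries and at least 689 elsewhere. Ifnar1 was at 33.8 to 38.6 CPM in the Ifnar1-/- libraries and 76.5 to 102 CPM elsewhere. The 3 embryos of the Casp1-/- D387A genotype were unlike each other: embryo 3 had 966 reads on Mlkl against 138 and 166 in embryos 1 and 2. Its 47.2 CPM of Mlkl lay within the 46.6 to 56.8 CPM of the Ifnar1-/- embryos, while the 6.37 and 7.57 CPM of embryos 1 and 2 were nearer to the 4.85 to 5.46 CPM of the controls. Libraries labelled Mlkl KO had 58 to 1485 reads on Mlkl and those with intact Mlkl 227 to 328, so this count does not check the labels. Whether all 3 embryos have the genotype and litter their labels imply cannot be told from these counts, and each mean and call of the Casp1-/- D387A intestines below, the effect of caspase-1 loss included, rests on the labels. The summed level of 7 leukocyte genes was 398 CPM in embryo 3, within the 350 to 403 CPM of the Ifnar1-/- embryos, against 228 and 229 in embryos 1 and 2, and that of 12 mast cell genes was 71.7 CPM against 37.3 and 39.6. The calls of the 9 genes that rest on these embryos are therefore also given with embryo 3 as the only library of its genotype, a choice made after the values were seen. The spread of that lone library is assumed to be that of the other genotypes, so a call lost there can come from the smaller number of libraries. The counts of companion genes rest on all 3 embryos and were not refitted with embryo 3 alone.

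The adult genes come in near-identical pairs, so their sequences bear on how far their reads can be told apart. On GRCm38, Hba-a1 lies at chr11:32283511-32284465 and Hba-a2 at chr11:32296489-32297298, both on the plus strand, and their coding sequences differed at 1 of 426 bases. On the minus strand of chromosome 7 lie Hbb-bt at chr7:103812524-103813996, Hbb-bs at chr7:103826534-103828096 and Hbb-y at chr7:103851749-103853216. Alas2 is at chrX:150547375-150570638 (plus strand), Epb42 at chr2:121017891-121037072 and Gata1 at chrX:7959260-7978071 (both minus strand). Coding bases 328 to 417 of the beta-like genes, from GENCODE M21 transcripts, are shown because they hold the only coding difference between Hbb-bs and Hbb-bt, in capitals at the end, and because they show how far Hbb-y departs from them, with its 26 differing bases in capitals.
Hbb-bs: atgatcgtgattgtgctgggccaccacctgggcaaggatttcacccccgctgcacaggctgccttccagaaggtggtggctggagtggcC
Hbb-bt: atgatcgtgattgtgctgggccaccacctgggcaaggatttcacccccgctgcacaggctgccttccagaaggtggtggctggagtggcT
Hbb-y: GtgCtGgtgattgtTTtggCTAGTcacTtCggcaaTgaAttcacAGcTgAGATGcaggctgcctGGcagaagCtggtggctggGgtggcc

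Over the whole coding sequence Hbb-bs and Hbb-bt differed at 1 of 441 bases and Hbb-bs and Hbb-y at 113 of 441 (74.4% identity). Only uniquely aligned reads were counted, and of the 50-base windows of each mature transcript 32.5% were unique to Hba-a1, 13.1% to Hba-a2, 34.2% to Hbb-bs and 41.7% to Hbb-bt, against 100% for Hbb-y. A count on 1 gene of an adult pair therefore covers part of its transcript, the split within a pair is uncertain, and the levels of adult globins are lower limits.

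Globin genes and Alas2 are active in red cell precursors, and the 120 bases before their RefSeq start sites (GRCm38.p6) are shown for the motifs they share. Capitals mark motifs of 4 kinds, each searched on both strands. The CCAAT box is the run CCAAT, read as ATTGG where it lies on the opposite strand. The CACCC box is the run CACCC, read there as GGGTG. The TATA-like motif was searched both as ATATAA and in the form CATAAA. The GATA motif was searched both as AGATAA, which reads TTATCT on the opposite strand, and in the form TGATAA.
Hba-a2, chr11:32296372-32296491, plus strand: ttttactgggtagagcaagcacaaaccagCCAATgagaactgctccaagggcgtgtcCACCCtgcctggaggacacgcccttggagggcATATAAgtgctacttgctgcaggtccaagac
Hbb-bs, chr7:103827929-103828048, minus strand: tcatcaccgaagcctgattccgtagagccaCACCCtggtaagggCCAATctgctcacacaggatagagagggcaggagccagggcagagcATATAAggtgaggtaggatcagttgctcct
Hbb-bt, chr7:103813924-103814043, minus strand: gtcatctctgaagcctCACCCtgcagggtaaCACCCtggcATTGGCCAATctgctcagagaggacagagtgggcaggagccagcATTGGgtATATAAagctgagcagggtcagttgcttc
Hbb-y, chr7:103853208-103853327, minus strand: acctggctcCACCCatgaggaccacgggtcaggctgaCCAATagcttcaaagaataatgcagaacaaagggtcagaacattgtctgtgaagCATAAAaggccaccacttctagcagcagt
Alas2, chrX:150547297-150547416, plus strand: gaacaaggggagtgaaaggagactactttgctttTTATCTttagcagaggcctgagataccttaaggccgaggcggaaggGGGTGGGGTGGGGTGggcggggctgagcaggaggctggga

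Each of the 4 globin windows shown held a CACCC box, a CCAAT box and a TATA-like motif, in that order except for Hba-a2, where the CCAAT box came first. Over the same window of 27025 genes, 31.3% held CACCC, 22.1% CCAAT, 4.68% ATATAA and 5.28% CATAAA. The Hba-a1 window repeated that of Hba-a2 over a run of 117 bases. In the Alas2 window an AGATAA motif, found before 4.44% of genes, and 3 CACCC motifs were on the opposite strand, the Gata1 window held CACCC motifs only, and the Epb42 window held none of these motifs. These are matches of letters and not measured binding sites.

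Levels are given as RPKM (reads per kilobase of gene, relative to library sizes scaled by TMM), which allows genes of different length to be set side by side. Over the 30 intestines the mean level was 958 RPKM for Hbb-bs, 184 for Hbb-bt, 153 for Hba-a1, 113 for Hba-a2 and 9.02 for Alas2. The adult globins differ in the share of their transcript that unique reads can cover, so no order is read among them. The means of Hbb-y, Epb42 and Gata1 were 0.263, 0.123 and 0.113 RPKM. Adult globins were thus plentiful in every intestine, whereas embryonic globin and the erythroid transcription factor were close to the limit of detection.

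Together the globin genes took between 0.0342% and 0.504% of the reads on genes, a small share in each library. In the D387A controls this share was 0.0765%, 0.0521% and 0.116% in embryos 1, 2 and 3. In the Casp1-/- D387A intestines it was 0.504%, 0.236% and 0.0808%. The first 2 of these embryos had the highest shares of all 30 libraries, while the third lay within the range of the controls. The other shares were 0.0729% to 0.0908% in Casp8 1xDA/1xDA, 0.0531% to 0.113% in Casp8 1xDA/1xDA Cflar-/- Mlkl-/-, 0.0347% to 0.106% in the Ifnar1-/- and 0.0342% to 0.0901% in the Fadd-/- intestines. In the C362A set they were 0.0461% to 0.146% in the controls, 0.0392% to 0.0538% in Casp8 C362A/C362A Mlkl-/-, 0.0361% to 0.0651% with Casp1-/- and 0.0578% to 0.103% with Cflar-/-. In whole tissue, fewer red cells and less RNA per red cell cannot be told apart.

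**Figure D1:**
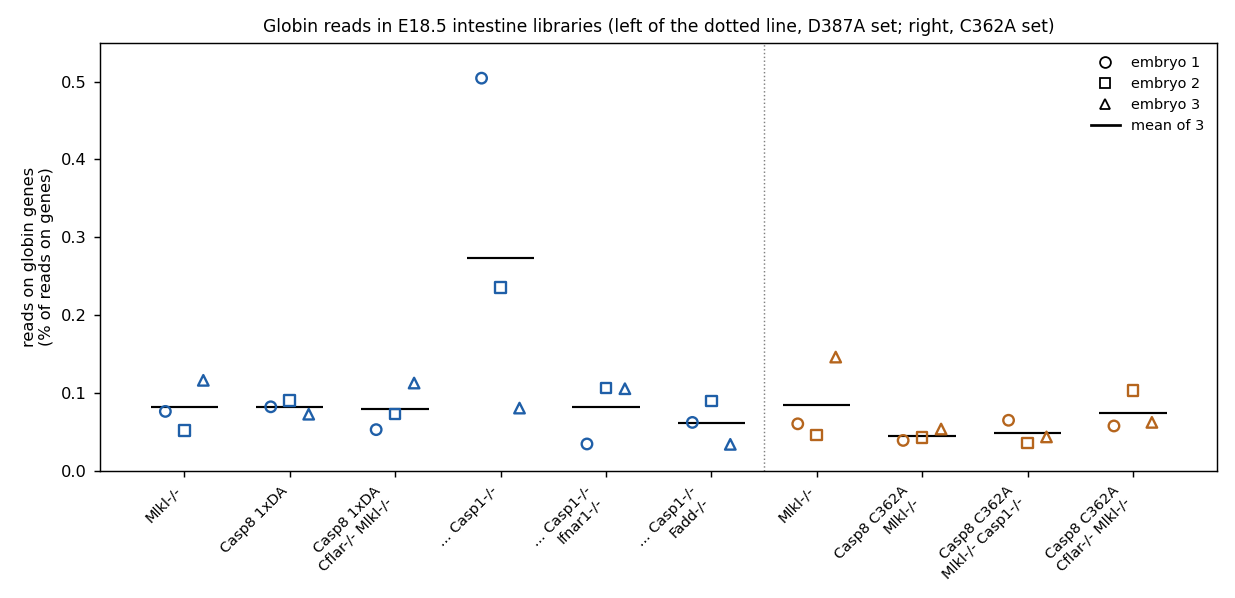
Share of the reads on genes that fell on globin genes, in percent on a linear axis, for each of the 30 intestines by genotype (points are embryos, bars are means). Casp1-/- D387A embryos 1 and 2 stand at 0.504% and 0.236%, above every other library, and embryo 3 stands at 0.0808%.

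A gene was called changed at an adjusted p under 0.05 and a log2 fold change above 1 or below -1, by the quasi-likelihood test of edgeR, adjusted after Benjamini and Hochberg over all genes tested. The test was applied to 6 of the 8 genes within each set. With all libraries of a set, Hbb-y and Gata1 had too few reads to pass its filter, which they passed where all 30 libraries were fitted together and under some other settings. Standard errors (SE) and 95% intervals belong to log2 fold changes.

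The first comparison asks what the D387A allele did without loss of cFLIP. Its mutants had intact Mlkl and its controls did not, so the alleles of the 2 genes cannot be told apart in it. None of the 6 genes was called in Casp8 1xDA/1xDA intestines against the controls, beside 0.00545% of all genes, none had an unadjusted p under 0.05, and DESeq2 and limma-voom called none. Hba-a1 was at 176, 188 and 182 RPKM against 165, 113 and 205 RPKM in the controls. Alas2 was at 9.30, 8.93 and 9.04 RPKM against 8.66, 5.99 and 9.12. The Casp8 1xDA/1xDA values of Hba-a1 lay within those of the controls and the values of Alas2 overlapped theirs. The 95% interval of the Hba-a1 difference ran from -0.67 to 1.06 and that of Epb42, the gene with the lowest value, from -1.24 to 0.48, and differences inside these intervals could not be told from 0 with 3 embryos a genotype.

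The D387A allele with loss of cFLIP, in embryos that lack MLKL as their controls do, left the same 6 genes uncalled, although 22.2% of all genes were called in Casp8 1xDA/1xDA Cflar-/- Mlkl-/- intestines against controls. No gene had an unadjusted p under 0.05, and DESeq2 and limma-voom called none. All 6 log2 fold changes were negative, between -0.77 and -0.16, with a median of -0.29 against -0.01 over all genes tested. Hba-a1 was at 89.5, 131 and 164 RPKM, overlapping the controls, and Hbb-bs was at 513, 698 and 1083 RPKM against 823, 548 and 1261 RPKM. Epb42 was at 0.0538, 0.0838 and 0.0903 RPKM, below the 0.113, 0.172 and 0.103 RPKM of the controls in every embryo, but with 6 to 16 reads a library it did not pass the test (log2 fold change -0.77, adjusted p = 0.156, edgeR).

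The related lists of the same comparison are read beside the 22.2% of all genes called. None of 13 genes of heme synthesis and mitochondrial iron was called. Of 30 genes of the red cell membrane, skeleton and enzymes 2 rose and 2 fell, with Tspan33, a tetraspanin, at a log2 fold change of 1.60 and Pklr, the pyruvate kinase of red cells and liver, at -2.31. Of 11 erythroid transcription regulators 1 rose (Myb, a regulator of progenitors, 2.06) and 2 fell, the lowest Hemgn, an erythroid nuclear protein, at -1.65. Of 6 receptors and iron uptake genes 2 fell, the lowest Slc11a2, an iron transporter that enterocytes also use, at -2.41. The summed level of 10 hepatocyte genes was 85.1 to 121 CPM here and 1132 to 1860 CPM in the controls, 7 of them fell, and their part in the values of the erythroid genes was not tested.

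The Casp1-/- D387A intestines had the highest mean levels of the adult globins, Alas2 and Epb42 in their set. Hba-a1, Hba-a2, Hbb-bt and Alas2 rose against the controls, 4 of the 6 genes tested, beside 4.34% of all genes called in that comparison. The median log2 fold change of the 6 genes was 1.56 against 0.02 over all genes tested. The rise came from embryos 1 and 2, and the third embryo did not show it.

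Among the alpha globins, Hba-a1 was at 825, 435 and 153 RPKM in embryos 1, 2 and 3 and at 165, 113 and 205 RPKM in the controls. Hba-a2 was at 639, 335 and 111 RPKM against 125, 79.9 and 158 RPKM. In both genes embryos 1 and 2 were above each control and embryo 3 was within the control range, so the groups overlapped. The log2 fold changes were 1.54 for Hba-a1 (SE 0.45, adjusted p = 0.0208) and 1.58 for Hba-a2 (SE 0.45, adjusted p = 0.0202) by edgeR.

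Among the beta globins, Hbb-bs was at 4663, 2227 and 820 RPKM against 823, 548 and 1261 RPKM in the controls. Its log2 fold change of 1.55 had an SE of 0.55 and did not pass (adjusted p = 0.0530, edgeR). Hbb-bt was at 1087, 537 and 183 RPKM against 158, 113 and 230 RPKM, with a log2 fold change of 1.85 (SE 0.50, adjusted p = 0.0149, edgeR). The same 2 embryos were high in both genes and embryo 3 lay within the controls. The reads on Hbb-y numbered 16, 7 and 2 in embryos 1, 2 and 3 and 4, 4 and 3 in the controls.

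Alas2, the first enzyme of erythroid heme synthesis, was at 63.1, 28.3 and 8.20 RPKM against 8.66, 5.99 and 9.12 RPKM in the controls. Its log2 fold change was 2.06 (SE 0.47, adjusted p = 0.00491, edgeR). Embryo 1 exceeded embryo 3 of its own genotype by a factor of 7.69 in Alas2 and 5.39 in Hba-a1, more than the whole span of any other genotype for these genes. Epb42 departed from this pattern. It had 30, 32 and 22 reads, or 0.280, 0.295 and 0.217 RPKM, all above the controls at 0.113, 0.172 and 0.103 RPKM, embryo 3 included, yet its log2 fold change of 1.02 (SE 0.39) did not pass (adjusted p = 0.0703, edgeR). Gata1 had 4, 4 and 14 reads, the most in embryo 3, against 1, 12 and 0 in the controls.

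These calls depended on single libraries. Without embryo 1 of the Casp1-/- genotype 1 call was left, with log2 fold changes of 0.86 for Hba-a1, 0.88 for Hba-a2 and 1.11 for Hbb-bt that no longer passed, and 1 call was likewise left without control embryo 1 or control embryo 2. With embryo 3 as its only library no gene was called, and Hba-a1, Hba-a2, Hbb-bt and Alas2 stood at -0.089, -0.14, 0.12 and 0.034. A fit of only the 2 groups called none (adjusted p = 0.0720 for Alas2), limma-voom called 2, and DESeq2 called 5, Hbb-bs being the fifth.

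**Figure D2:**
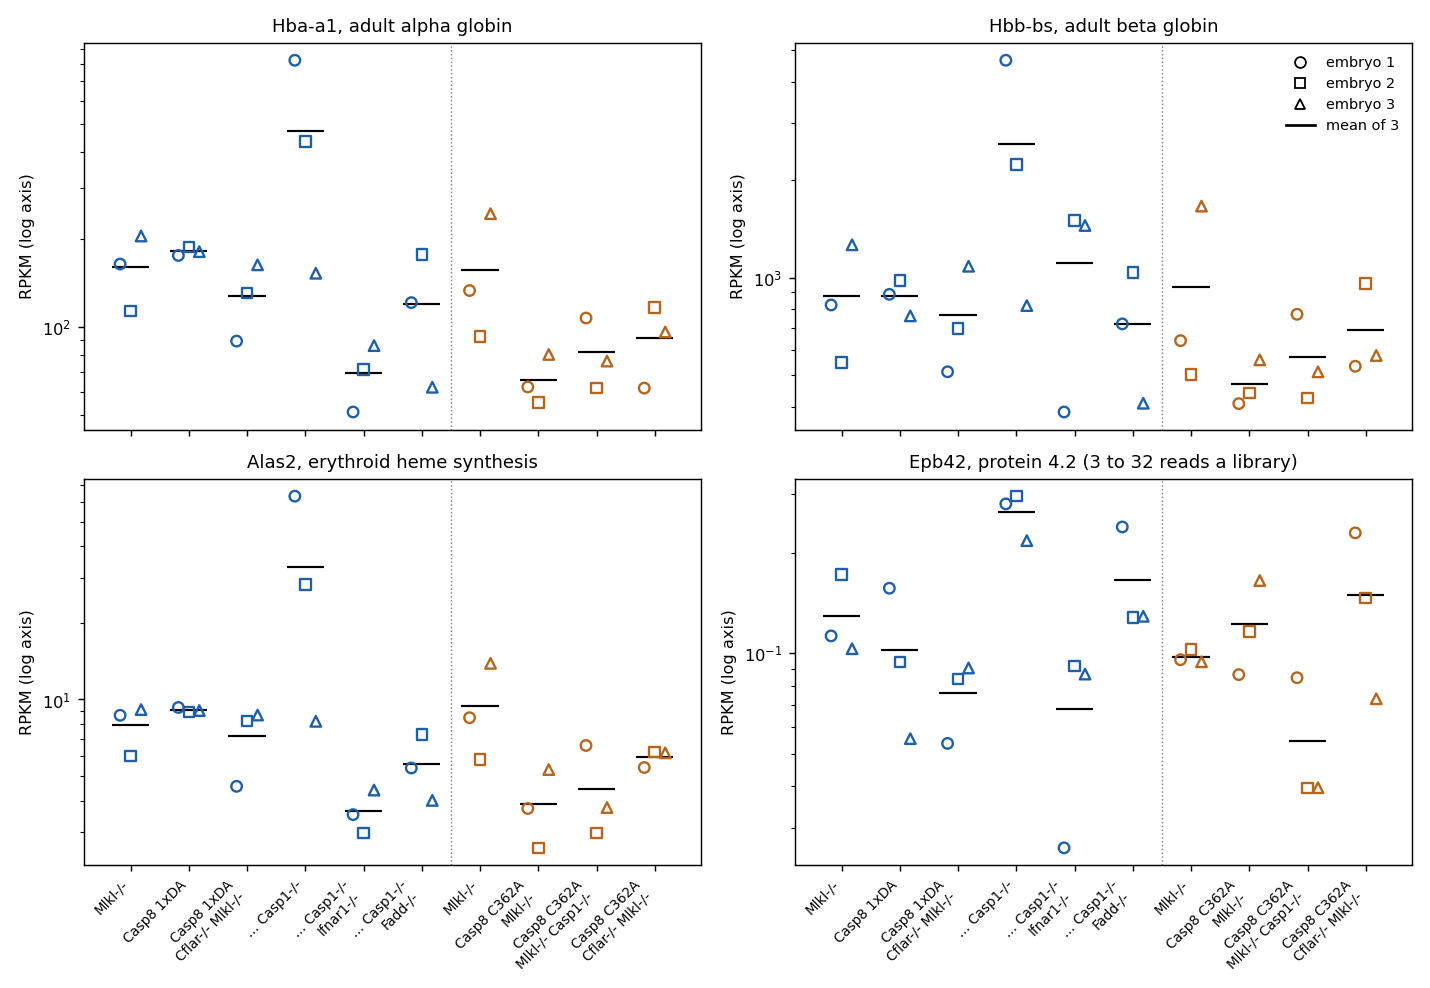
Levels of Hba-a1, Hbb-bs, Alas2 and Epb42 in RPKM, on log axes, in each of the 30 intestines by genotype. For Hba-a1, Hbb-bs and Alas2, Casp1-/- D387A embryos 1 and 2 lie above every other library (Hba-a1 at 825 and 435 RPKM). Embryo 3 lies among the other genotypes for these genes, whereas for Epb42 all 3 embryos, at 0.217 to 0.295 RPKM, lie above the controls.

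Of the companion lists in this comparison, beside 4.34% of all genes called, none of 13 heme synthesis genes was called, 1 of 30 membrane and enzyme genes rose and 1 of 11 regulators rose (Klf1, the activator of adult beta globin, 1.53). Of 6 receptors and iron uptake genes Slc11a2 fell (-1.01). In the same comparison 8 of 11 mast cell genes rose, and mast cells also use Gata1. The hepatocyte genes summed to 405 to 658 CPM, below the 1132 to 1860 CPM of the controls, with 7 of 10 fallen. All 3 embryos lay in that range, embryo 3 with its control-like globins included. The 3 spleen stroma genes summed to 22.6 to 23.8 CPM, above the 11.8 to 12.1 CPM of the controls and every other genotype of the set, again in all 3 embryos. Nearly all of that sum was Bcl6b (22.5 to 23.7 CPM), while the other members, Tlx1 and Nkx2-5, had 0 to 3 and 0 to 8 reads a library, against 1 to 5 and 0 to 13 in the controls. The part of these tissues in the globin values was not tested.

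The effect of caspase-1 loss itself is read against Casp8 1xDA/1xDA Cflar-/- Mlkl-/- intestines. All 6 genes tested rose, beside 13.4% of all genes called, and their median log2 fold change was 1.955 against 0.03 over all genes tested. The log2 fold changes were 1.89 for Hba-a1, 2.02 for Hba-a2, 1.76 for Hbb-bs, 2.07 for Hbb-bt, 2.23 for Alas2 and 1.79 for Epb42, with adjusted p from 0.000873 for Alas2 to 0.0144 for Hbb-bs by edgeR. The groups did not overlap for Epb42 and, by a narrow margin, for Hba-a2. For the other genes embryo 3 fell within the range of the genotype with caspase-1, as for Hba-a1 at 153 RPKM against 89.5, 131 and 164 RPKM. Without embryo 1 of the Casp1-/- genotype, and without embryo 1 of the other, 5 genes were called and Hbb-bs was not (log2 fold change 1.00 and 1.54). With embryo 3 alone none was called, and the values were 0.26 for Hba-a1, 0.10 for Hbb-bs, 0.20 for Alas2 and 1.5 for Epb42.

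Beside them, and beside 13.4% of all genes called, none of 13 heme synthesis genes was called, 5 of 30 membrane and enzyme genes rose and 2 fell, and 3 of 11 regulators rose and 1 fell. Pklr had the largest rise (2.02) and Car1, a carbonic anhydrase of red cells and colon, the largest fall (-2.19) of the membrane list, and Hemgn (2.42) and Myb (-1.40) those of the regulators. Of the hepatocyte genes 5 of 10 rose, from a summed 85.1 to 121 CPM to 405 to 658 CPM, in the direction of the globins. The spleen stroma genes, none of them called, summed to 22.6 to 23.8 CPM against 15.9 to 19.7 CPM. In the Casp1-/- intestines that sum was nearly all Bcl6b. The part of these cells in the globin values was not tested.

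Loss of the interferon receptor on top went with lower erythroid transcripts. Against the Casp1-/- intestines 5 of 6 genes fell in the Ifnar1-/- intestines, beside 5.31% of all genes called, with a median log2 fold change of -2.61 against 0.00 over all genes tested. Hba-a1 was at 51.1, 71.4 and 86.3 RPKM, Hba-a2 at 39.4, 47.5 and 65.0 RPKM and Alas2 at 3.52, 2.98 and 4.4 RPKM. All 3 embryos were below each Casp1-/- embryo for these genes, embryo 3 included, and also for Hbb-bt and Epb42. The share of all genes whose groups lay apart is not given here, for this or any other comparison. Such separation is therefore not shown to be particular to the listed genes. Of all genes tested, 30.6% passed the adjusted p in this comparison, whatever their fold change. Log2 fold changes were -2.76 for Hba-a1 (adjusted p = 0.000787), -2.84 for Hba-a2 (adjusted p = 0.000756), -2.47 for Hbb-bt (adjusted p = 0.00250), -3.19 for Alas2 (adjusted p = 0.000502) and -1.93 for Epb42 (adjusted p = 0.00296) by edgeR.

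Hbb-bs stood apart from this fall. It was at 386, 1499 and 1446 RPKM in Ifnar1-/- embryos 1, 2 and 3, so embryos 2 and 3 were above embryo 3 of the Casp1-/- genotype at 820 RPKM, and its log2 fold change of -1.21 did not pass (adjusted p = 0.101, edgeR; 95% interval from -2.27 to -0.15). With embryo 3 as the only Casp1-/- library the values kept their sign, at -1.13 for Hba-a1, -1.12 for Hba-a2, -0.74 for Hbb-bt, -1.17 for Alas2 and -1.64 for Epb42, and with 1 library in that arm none was called. With embryo 1 as the only Ifnar1-/- library 1 was called.

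Against the controls, 2 of the 6 genes fell in Ifnar1-/- intestines, beside 12.4% of all genes called, and the median log2 fold change was -1.02 against 0.00 over all genes tested. These were Hba-a1 (-1.21, SE 0.45, adjusted p = 0.0340) and Hba-a2 (-1.26, SE 0.46, adjusted p = 0.0324), by edgeR. Alas2 and Epb42, at -1.13 and -0.91, did not pass (adjusted p = 0.0655 and 0.113, edgeR). The value of Hbb-bs was 0.34 (95% interval from -0.71 to 1.39). No gene was called without control embryo 1 or 3, or without Ifnar1-/- embryo 1 or 2, when Hba-a1 stood between -1.23 and -1.01.

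The ratio of beta to alpha reads within a library does not depend on its depth and showed the same departure of Hbb-bs. Reads on Hbb-bs per read on Hba-a1 were 6.78, 18.86 and 15.04 in Ifnar1-/- embryos 1, 2 and 3 and 3.77 to 7.76 in the other 27 intestines. Embryos 2 and 3 were outside the range of all other libraries and embryo 1 was within it. Hbb-bs made up 91.5% and 90.3% of the adult beta reads in those 2 embryos, 84.7% in embryo 1 and 78.7% to 85.2% elsewhere. Hbb-bt per Hba-a1 read was 1.23, 1.75 and 1.62, the 2 high values near the 1.63 of Casp8 C362A/C362A Cflar-/- Mlkl-/- embryo 1. By contrast Hba-a2 per Hba-a1 read lay between 0.527 and 0.637 in all 30 intestines. Hbb-bs and Hbb-bt share most of their sequence, as the stretch above shows, so the split of reads within the beta pair is uncertain. Gene counts do not show which beta globin haplotype an embryo carried, and its part in these ratios and in the Hbb-bs levels of embryos 2 and 3 was not tested.

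**Figure D3:**
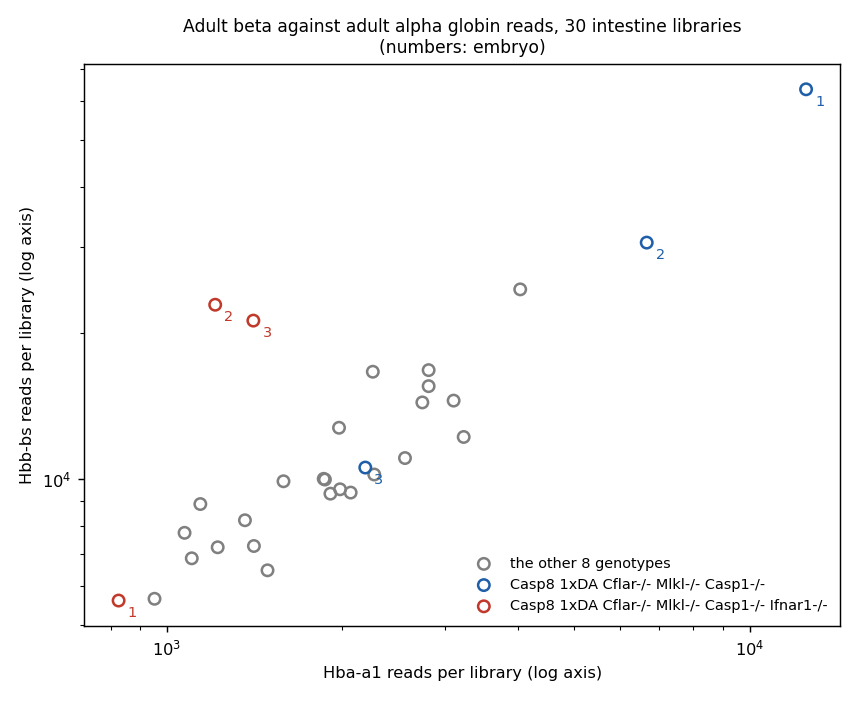
Reads on Hbb-bs against reads on Hba-a1 in each of the 30 intestines, both axes logarithmic. Ifnar1-/- D387A embryos 2 and 3, with 18.86 and 15.04 Hbb-bs reads per Hba-a1 read, lie above the band of the other libraries.

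In the companion lists, 12 of 30 membrane and enzyme genes fell and 1 rose in Ifnar1-/- against Casp1-/- intestines, beside 2.03% of all genes fallen and 3.28% risen, where Kel, the Kell blood group protein, had the largest fall (-5.84) and Car1 the rise (2.60). Kel had 0 or 1 read in the Ifnar1-/- libraries and 20 to 33 in the Casp1-/- libraries. Of 11 regulators 2 fell, with Hemgn at -2.72, and none of 13 heme synthesis genes was called. Against the controls, beside 5.64% of all genes fallen and 6.76% risen, 7 of 30 membrane and enzyme genes fell and 1 rose, and of the regulators 2 rose and 3 fell, with Klf1 at 2.13 and Hemgn at -1.94. The heme synthesis list had 1 rise there, Alas1, the enzyme of the first step outside erythroid cells, at 1.00. The hepatocyte genes summed to 238 to 368 CPM, below both groups, and 3 of 10 fell against the Casp1-/- intestines. Other sums were also lower than in the Casp1-/- intestines without overlap. Endothelium was at 538 to 586 CPM against 646 to 713 CPM and fibroblasts at 3053 to 3227 CPM against 3815 to 4403 CPM. Platelets and megakaryocytes were at 78.7 to 85.0 CPM against 87.8 to 106 CPM. The spleen stroma list, nearly all Bcl6b in the Casp1-/- intestines, was at 14.4 to 17.9 CPM against 22.6 to 23.8 CPM. Eosinophil genes went the other way without overlap, at 1.43 to 2.39 CPM against 0.411 to 0.977 CPM. No gene of the endothelium, fibroblast or spleen lists was called, and the part of these cells in the globin values was not tested.

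Loss of FADD, compared with the same Casp1-/- intestines, also went with lower transcripts, and both comparisons share those 3 libraries. In Fadd-/- intestines 5 of 6 genes fell, beside 3.44% of all genes called, with a median log2 fold change of -2.0 against -0.03 over all genes tested. Hba-a1 was at 121, 178 and 62.1 RPKM and Alas2 at 5.37, 7.29 and 4.01 RPKM. The Fadd-/- embryos were all below the Casp1-/- embryos for Alas2, while for Hba-a1 embryo 2 at 178 RPKM exceeded Casp1-/- embryo 3. Log2 fold changes were -1.99 for Hba-a1 (adjusted p = 0.00613), -2.0 for Hba-a2 (adjusted p = 0.00643), -1.85 for Hbb-bs (adjusted p = 0.0276), -2.07 for Hbb-bt (adjusted p = 0.00943) and -2.60 for Alas2 (adjusted p = 0.00135) by edgeR. Epb42, at 0.239, 0.128 and 0.129 RPKM, did not pass (-0.69, adjusted p = 0.213, edgeR).

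Without Casp1-/- embryo 1 only Hba-a1 and Alas2 were called, and Hba-a2, Hbb-bs and Hbb-bt stood at -1.30, -1.10 and -1.33. With embryo 3 as the only Casp1-/- library, and in a fit of only the 2 groups, none was called, the former with Hba-a1 at -0.36 and Alas2 at -0.57. Against the controls none of the 6 genes was called in Fadd-/- intestines, beside 3.78% of all genes, none had an unadjusted p under 0.05, and DESeq2 and limma-voom called none. The Hba-a1 and Alas2 differences from the controls had 95% intervals from -1.31 to 0.42 and from -1.47 to 0.40. Of the companion genes, beside 0.877% of all genes fallen, 2 of 30 membrane genes fell against Casp1-/- and 1 of 11 regulators (Hemgn at -1.43), together with 8 of 11 mast cell genes, and none of these lists had a call against the controls. The hepatocyte genes summed to 1146 to 1596 CPM in Fadd-/- and 405 to 658 CPM in Casp1-/- intestines, with 2 of 10 risen, in the direction opposite to the globins. In the direction of the globins, endothelium summed to 594 to 619 CPM against 646 to 713 CPM and fibroblasts to 3115 to 3634 CPM against 3815 to 4403 CPM. The spleen stroma list, nearly all Bcl6b in the Casp1-/- intestines, summed to 13.2 to 14.8 CPM against 22.6 to 23.8 CPM. These 3 lists had no called gene. Platelet and megakaryocyte genes went the other way, at 107 to 124 CPM against 87.8 to 106 CPM. The part of these cells in the globin values was not tested.

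**Figure D4:**
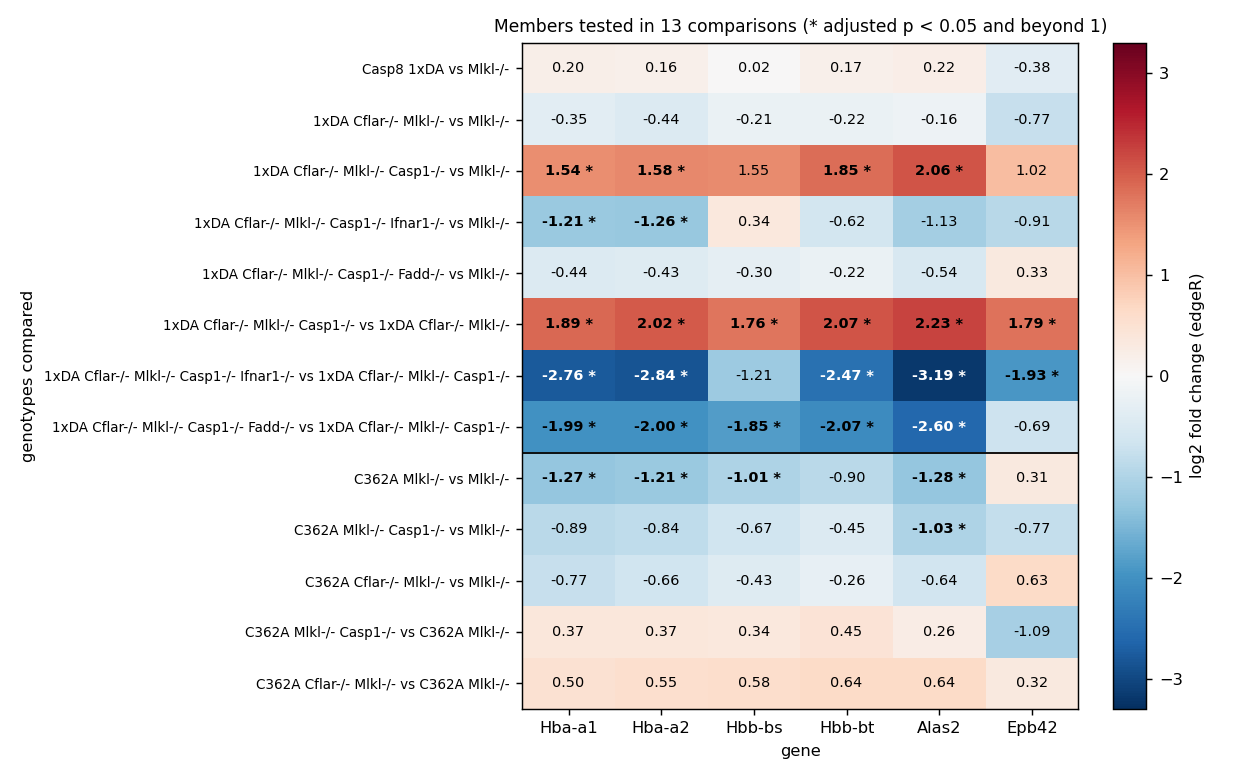
Log2 fold changes of the 6 genes tested, as colours and numbers, in the comparisons of genotypes within each set. An asterisk marks a called gene. All 6 genes carry it for caspase-1 loss in the D387A set (Alas2 at 2.23) and 5 genes do for FADD loss (Alas2 at -2.60).

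In the C362A set the called erythroid transcripts were lower in the mutants than in the controls. In Casp8 C362A/C362A Mlkl-/- intestines Hba-a1, Hba-a2, Hbb-bs and Alas2 fell, 4 of 6 genes, beside 18% of all genes called. The median log2 fold change was -1.11 against 0.02 over all genes tested. Hba-a1 was at 62.3, 55.01 and 80.5 RPKM against 134, 92.6 and 245 RPKM in the controls of the set. Alas2 was at 3.72, 2.61 and 5.30 RPKM against 8.48, 5.81 and 13.9 RPKM. Each mutant was below each control for both genes and for Hba-a2, while for Hbb-bs the mutants at 409, 441 and 558 RPKM overlapped the controls at 639, 503 and 1659 RPKM.

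The log2 fold changes were -1.27 for Hba-a1 (SE 0.32, adjusted p = 0.00500), -1.21 for Hba-a2 (SE 0.32, adjusted p = 0.00634), -1.01 for Hbb-bs (SE 0.38, adjusted p = 0.0453) and -1.28 for Alas2 (SE 0.34, adjusted p = 0.00683), by edgeR. Hbb-bt passed the adjusted p but not the fold (-0.90, adjusted p = 0.0327, edgeR), and Epb42 was at 0.31 (95% interval from -0.55 to 1.17). Hbb-bs was not called by DESeq2 or limma-voom. Control embryo 3 had the highest Hba-a1, Hbb-bs and Alas2 of the set. Without it no gene was called, since the values shrank to -0.79 for Hba-a1, -0.75 for Hba-a2, -0.29 for Hbb-bs and -0.89 for Alas2, of which only Hbb-bs also lost the adjusted p (0.421 by edgeR, against 0.0275, 0.0367 and 0.0377 for the others).

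Beside 10.4% of all genes risen and 7.55% fallen, of the heme synthesis genes 1 of 13 fell (Cpox, coproporphyrinogen oxidase, -1.963), of the membrane list 2 of 28 rose and 2 fell (Car1 at 2.24, Pklr at -2.03), of the regulators 2 of 11 rose and 3 fell (Myb at 1.45, Hemgn at -2.53) and of the receptors Slc11a2 fell (-1.80). The hepatocyte genes summed to 637 to 819 CPM against 1362 to 1670 CPM, with 4 of 10 fallen, in the direction of the globins. Their part in the globin values was not tested. In the same intestines 6 of 12 mast cell genes and 4 of 6 leukocyte genes rose.

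Loss of caspase-1 in this background left lower values that mostly missed the fold threshold. In Casp8 C362A/C362A Mlkl-/- Casp1-/- intestines Alas2 fell against the controls (-1.03, SE 0.34, adjusted p = 0.0281, edgeR), 1 of 6 genes, beside 10.5% of all genes called. Alas2 was at 6.59, 2.98 and 3.76 RPKM, and embryo 1 lay within the controls. Hba-a1 and Hba-a2 passed the adjusted p but not the fold, at -0.89 and -0.84 (adjusted p = 0.0394 and 0.0498, edgeR). The call of Alas2 was lost without control embryo 3 (-0.64) and without embryo 2 (-0.84) or 3 (-0.94) of the mutant, and by limma-voom, where its value was -0.99. Hbb-y had no read in these 3 libraries, which allows up to 3 reads a library, and 5, 1 and 14 in the controls.

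Against Casp8 C362A/C362A Mlkl-/- none of the 6 genes was called in Casp8 C362A/C362A Mlkl-/- Casp1-/- intestines, beside 11.3% of all genes, 1 had an unadjusted p under 0.05, and DESeq2 and limma-voom called none. That gene was Epb42, at 0.0845, 0.0395 and 0.0396 RPKM against 0.0863, 0.116 and 0.165 RPKM, lower in each embryo with 5 to 11 reads against 12 to 23 (log2 fold change -1.09, SE 0.48, adjusted p = 0.0976, edgeR). Gata1, which was too low for the test, had 3, 0 and 2 reads against 8, 10 and 9, and the groups did not overlap. Markers of other cells that use Gata1 were lower in the same intestines: mast cell genes summed to 26.0 to 31.0 CPM against 85.5 to 120 CPM, eosinophil genes to 0.587 to 1.29 CPM against 3.17 to 4.62 CPM, and platelet and megakaryocyte genes to 65.3 to 86.3 CPM against 126 to 145 CPM. The part of these cells in the Gata1 reads was not tested. Of the companion lists 3 of 28 membrane genes fell. Of 11 regulators Nfe2, a subunit of a factor that binds globin control regions, fell (-2.15) and Klf1 rose (1.17).

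Addition of Cflar-/- to the C362A background gave no call. None of the 6 genes was called in Casp8 C362A/C362A Cflar-/- Mlkl-/- intestines against the controls, beside 24.6% of all genes, 1 had an unadjusted p under 0.05, and DESeq2 and limma-voom called none. That gene was Hba-a1, at 61.7, 117 and 96.2 RPKM (log2 fold change -0.76, adjusted p = 0.0535, edgeR), which was called without control embryo 2 (-1.02). Epb42 was at 0.229, 0.146 and 0.0731 RPKM, and its log2 fold change was 0.63 with a 95% interval from -0.21 to 1.48. Against Casp8 C362A/C362A Mlkl-/- none of the 6 was called either, beside 6.06% of all genes, none had an unadjusted p under 0.05, and DESeq2 and limma-voom called none. All 6 of those values were positive, between 0.32 and 0.64, and Alas2, at 5.4, 6.21 and 6.17 RPKM, was above each embryo without Cflar-/-. The hepatocyte genes summed to 45.6 to 264 CPM with Cflar-/- and to 637 to 819 CPM without it, and their part in the globin values was not tested.

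Whether the sets differ was tested by the difference between the 2 changes, with all 30 libraries in the fit and all 8 genes tested. For the change of the Casp8 1xDA/1xDA Cflar-/- Mlkl-/- and of the Casp8 C362A/C362A Mlkl-/- intestines from their controls no gene was called by edgeR, DESeq2 or limma-voom, beside 7.46% of all genes, and none had an unadjusted p under 0.05. For the change of the 2 Cflar-/- Mlkl-/- knock-ins from their controls none was called by the same tools, beside 0.0764% of all genes, and 1, Epb42, had an unadjusted p under 0.05 (-1.41, 95% interval from -2.66 to -0.16). So the falls called in the C362A set and not in the D387A set were not shown to differ between the sets.

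The effect of caspase-1 loss did differ for 2 of the 8 genes, beside 5.73% of all genes called. The change with Casp1-/- was greater in the D387A set by 1.99 for Alas2 (SE 0.64, adjusted p = 0.0319) and by 2.90 for Epb42 (SE 0.64, adjusted p = 0.00376) on the log2 scale, by edgeR. Alas2 rose in 1 set and was not called in the other, and Epb42 had its highest mean in Casp1-/- D387A intestines (0.264 RPKM ± 0.0412 SD, n = 3) and its lowest in Casp1-/- C362A intestines (0.0545 ± 0.0259). The differences of the other 6 genes were positive too, from 1.45 for Hbb-bs to 4.47 for Hbb-y, with adjusted p from 0.0609 to 0.215 by edgeR. Of these, Hbb-y rests on 0 to 16 reads a library. The 2 contrasts are not alike in genotype, since the D387A intestines also lacked Cflar, so the caspase-8 allele and Cflar cannot be told apart here.

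The calls of these differences rested unequally on single libraries. With embryo 3 as the only Casp1-/- D387A library, its spread taken from the other genotypes, the value of Alas2 was -0.052. Without that library 6 genes were called, at 1.97 for Hba-a1 and 1.87 for Hbb-bs. The call of Alas2 was lost without Casp1-/- D387A embryo 1 (1.12), without Casp8 1xDA/1xDA Cflar-/- Mlkl-/- embryo 1 (1.75), without Casp8 C362A/C362A Mlkl-/- embryo 3 (1.70) and without Casp8 C362A/C362A Mlkl-/- Casp1-/- embryo 2 (1.78) or 3 (1.88). Beside 4.9% of all genes with a greater change in the D387A set and 0.825% with a smaller one, 5 of 30 of the membrane list had a greater change in the D387A set and 1 a smaller one, and 1 of 11 regulators, Nfe2, at 2.72.

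**Figure D5:**
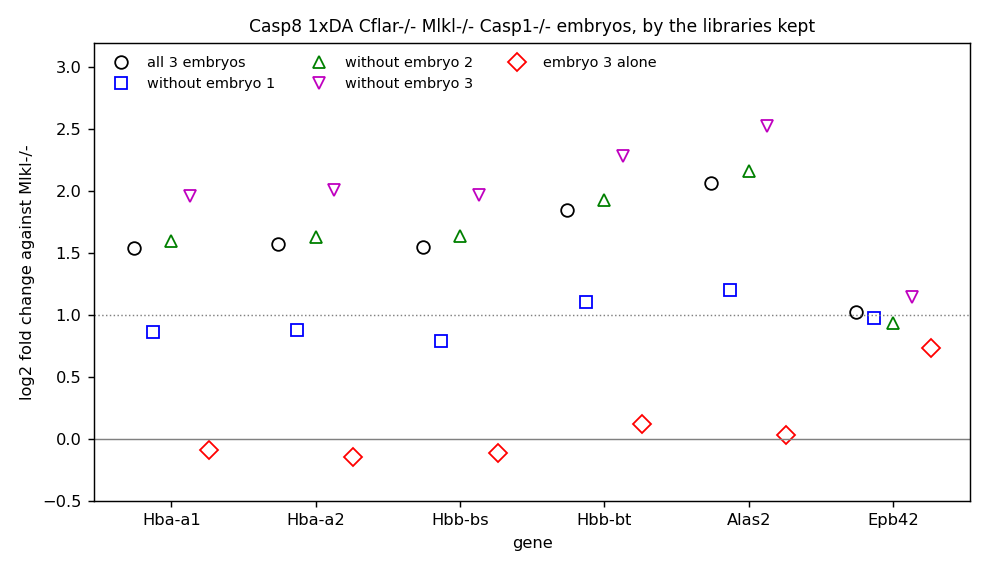
Log2 fold changes of the Casp1-/- D387A intestines against the controls with all 3 embryos, without each embryo in turn, and with embryo 3 alone. The values of Hba-a1, Hba-a2, Hbb-bt and Alas2 lie near 0 with embryo 3 alone (Hba-a1 goes from 1.54 to -0.089).

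In the order of genotypes by mean RPKM within a set, the ranges of neighbouring genotypes overlapped at every step for Hba-a1, Hbb-bs and Alas2. For Epb42 neighbours were apart only between the controls and Casp8 C362A/C362A Mlkl-/- Casp1-/-, the lowest of the C362A set.

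Across the 30 intestines, on log2 CPM centred on each set, Hba-a1 followed Hba-a2 with a Pearson r of 1.00, Alas2 and Hbb-bt with 0.96, Hbb-bs with 0.82 and Epb42 with 0.47. Without Casp1-/- D387A embryos 1 and 2 the value for Hba-a1 and Epb42 was 0.26, and that for Hba-a2 and Alas2 was 0.94 against 0.97 with them. Among the 3 genes most like each member, of 18190 compared, were Rftn2 for Hba-a1 (0.77), Chd6 for Alas2 (0.75), and Zfp606 (0.70) and Ttc5 (0.68) for Hbb-bs. For Epb42 they included Slc4a1, the band 3 anion exchanger to which protein 4.2 binds (0.71), and Gm47483 (0.66). These values describe 30 libraries that share genotypes and differ in sequencing depth, and 2 members of an adult globin pair also share reads.

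The genes near the limit of detection are given as reads. Over the 30 intestines Hbb-y had 112 reads, 0 to 16 a library, and Gata1 154 reads, 0 to 14 a library, while the largest Hbb-y count was in Casp1-/- D387A embryo 1 and the largest Gata1 count in embryo 3 of that genotype. The other embryonic globins were as scarce: Hba-x, the embryonic alpha-like chain, had at most 12 reads in a library, in Casp1-/- D387A embryo 1, Hbb-bh1 at most 3 and Hbb-bh2 none, which allows up to 3 reads a library. None of these 6 other globin genes was tested. Alas2 kept a narrower relation to the globins than its own level, with 0.120 to 0.255 Alas2 reads per Hba-a1 read over all 30 intestines.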

How the data were processed

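RNA was sequenced from whole E18.5 intestines. The authors aligned reads with GSNAP to GRCm38/mm10, dropped reads with several alignments and deposited a raw count for each gene. The program that counted reads and its treatment of strand are not given in the sources used here. The RPKM column the authors deposited was not used. The levels in RPKM were recomputed from the counts, the deposited gene widths and TMM-scaled totals. The 9 genes and all lists were chosen with earlier results of these data known.

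The counts were fitted with edgeR 4.0.16 (R 4.3.3), using filterByExpr (minimum count 10, minimum total 15), TMM, quasi-likelihood tests and a prior count of 0.125. All genotypes of a set shared a fit, over 18360 genes (D387A) or 19408 genes (C362A), and differences between the sets were fitted over 19643 genes in 30 libraries. Library totals had medians of 21411893 and 26901265 reads, and the biological coefficients of variation were 0.132, 0.162 and 0.146. SEs were obtained as the log2 fold change over the root of its F statistic, and 95% intervals are 1.96 SE to each side. Named genes are the listed genes, and of each companion list the called genes with the largest rise and fall. The 3 genes most like a listed gene were ranked by Pearson r of log2 CPM centred on each set. Other globins are given by their reads, and Mlkl and marker sums were added after their values were seen. Markers of other cell types are counted or summed in CPM. A count of 0 was read as up to 3 reads, which covers counting error only. The labels call the embryos of a genotype biological replicates.

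Replicate numbers recur between genotypes. Deviations of same-numbered libraries correlated with r from -0.278 to 0.221 in the D387A set and -0.438 to 0.291 in the C362A set, so the numbers do not pair embryos. Other settings tried were DESeq2 1.42.0, limma-voom with limma 3.58.1, raw library totals, other filters, a fit of only the groups compared, pooled controls, a replicate block and each library left out. MEF libraries, Ahsp and tests of sets were left out, and some companion genes are not reported here. The fits were tested on simulated data.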

Additional observations from a re-analysis of the deposited data

Results flagged for a closer look

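Only the effect of caspase-1 loss differed between the sets by a test of the difference itself. For Alas2 the change with Casp1-/- in the D387A set exceeded that in the C362A set by 1.99 on the log2 scale, and for Epb42 by 2.90. Alas2 had 2786, 1263 and 342 reads in Casp1-/- D387A embryos 1, 2 and 3 and 353, 155 and 195 in the Casp1-/- embryos of the C362A set. Epb42 had 30, 32 and 22 against 11, 5 and 5. The genotypes were groups of 3 embryos, for which single high or low samples were not tested.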

How the results depend on the processing

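Of 149 counts of genes called under the alternatives that kept all libraries, 137 stayed within 1.5 times the count reported, and 88 of 114 did so when a library was left out. Against the controls, Casp1-/- D387A intestines had 2 calls with limma-voom and 0 in a fit of only the groups compared, which also gave 0 for Fadd-/- against Casp1-/-. Casp8 C362A/C362A Mlkl-/- Casp1-/- against controls had 0 calls with limma-voom, 0 with the replicate block, 2 with raw totals and 2 without a filter, and against Casp8 C362A/C362A Mlkl-/- 1 and 1 under the last 2. The difference in the effect of caspase-1 loss had 1 call with limma-voom and 5 with raw totals or no filter. The cause was not tested. The replicate block moved no other count by over 1.5 times, and 8 of 18 and 2 of 12 libraries of the sets correlated best with their own number. Leaving out 1 library gave 1 to 5 calls (Casp1-/- against controls), 0 to 2 (Ifnar1-/- against controls), 5 to 6 (Casp1-/- against Casp8 1xDA/1xDA Cflar-/- Mlkl-/-), 5 to 7 (Ifnar1-/- against Casp1-/-), 2 to 5 (Fadd-/- against Casp1-/-), 0 to 5 (Casp8 C362A/C362A Mlkl-/- against controls), 0 to 3 (with Casp1-/- against controls), 0 to 1 (with Casp1-/- against without, and with Cflar-/- against controls) and 1 to 6 (the difference in caspase-1 loss). Chosen after seeing the data, Casp1-/- D387A intestines were reduced to embryo 3, which gave 0 calls in all 4 comparisons within the set and 1 in the difference, and reversed Hba-a1 (-0.089) and Hba-a2 (-0.14) against controls and Alas2 (-0.052) in the difference. Ifnar1-/- intestines reduced to embryo 1 had 1 call against controls and 1 against Casp1-/-. Low counts limit Epb42, Hbb-y and Gata1.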
